A study of Mus musculus with 22 samples.

Results

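The 10 genes described here make and load peptides for major histocompatibility complex (MHC) class I molecules. They were chosen by symbol and are H2-K1, H2-D1, B2m, Tap1, Tap2, Tapbp, Psmb8, Psmb9, Psmb10 and Nlrc5. All 10 were found in each of the 3 deposited tables of normalized counts, among 21880, 26097 and 25676 genes in the tables named here experiment 1, experiment 2 and culture. RNA was sequenced from 22 libraries of splenic immature B cells of mice, sorted as B220+CD93+. Experiment 1 holds 3 libraries of untreated Tcrd-GDL mice and 3 of Tcrd-GDL mice given diphtheria toxin (DTx), called depleted. Experiment 2 holds 5 untreated Tcrd-GDL libraries, 2 depleted Tcrd-GDL libraries and 3 libraries of Tcrd-H2BeGFP mice given the same toxin, called toxin control. Each toxin dose was 15 ng per g body weight, given 2 times at an interval of 48 h, and cells were taken on day 8 after the first dose. Culture holds 3 libraries of immature B cells kept alone and 3 kept with γδ T cells, all labelled as untreated Tcrd-H2BeGFP.

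As background, the Tcrd-GDL allele places a toxin receptor and reporters in the T cell receptor δ locus, so that toxin removes γδ T cells, and Tcrd-H2BeGFP places a histone-GFP reporter in that locus. The labels do not say whether Tcrd-H2BeGFP carries a toxin receptor, and give no age, sex, culture time or source of the added T cells. The libraries hold sorted B cells, so the loss of γδ T cells itself cannot be read from them. The toxin control differs from the untreated libraries in strain and in toxin, which cannot be told apart, and from the depleted libraries in strain. The labels number the libraries of a group without saying that they came from separate animals, so every p-value rests on the spread among the libraries at hand, which may be technical. Tables were normalized separately, and groups were compared only within a table.

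The class I pathway shows peptides from inside the cell to CD8+ T cells. The proteasome cuts proteins into peptides, the Tap1-Tap2 pump carries these into the endoplasmic reticulum, and tapasin (encoded by Tapbp) holds the pump next to empty class I molecules until a peptide fits. A class I molecule is a heavy chain, such as that of H2-K1 or H2-D1, bound to β2-microglobulin (B2m). Interferon γ raises these genes and exchanges the 3 standard catalytic subunits of the 20S proteasome (Psmb5, Psmb6, Psmb7) for Psmb8, Psmb9 and Psmb10, which gives the immunoproteasome. Nlrc5 is a transactivator that enters class I promoters through factors bound at a conserved row of sites, the X2 and Y boxes among them. B cells express the pathway constantly.

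Of the 10 genes, 7 lie on chromosome 17 (GRCm38), in the order Tapbp, H2-K1, Psmb9, Tap1, Psmb8, Tap2 and H2-D1. Tapbp spans chr17:33915899-33929292 (plus strand), H2-K1 chr17:33996017-34000347 (minus strand) and H2-D1 chr17:35262730-35267499 (plus strand). Between H2-K1 and H2-D1 stand Psmb9 (chr17:34181987-34187764, minus strand), Tap1 (chr17:34187553-34197225), Psmb8 (chr17:34197721-34201454) and Tap2 (chr17:34203527-34216321), the last 3 on the plus strand. Tap1 and Psmb9 are transcribed away from each other and their annotated exons overlap by 212 bases on opposite strands. Gaps of 495 and 2072 bases separate Tap1 from Psmb8 and Psmb8 from Tap2. B2m lies at chr2:122147686-122153083 (plus strand), Psmb10 at chr8:105935735-105938444 (minus strand) and Nlrc5 at chr8:94434356-94527272 (plus strand).

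RefSeq promoter windows (GRCm38.p6) matched 8 of the 10 genes. Tap2 and Nlrc5 had none in the table used. The stretches from 200 to 20 bases before the start site of H2-K1 (chr17:34000353-34000533, minus strand, by the second of its 2 listed start sites) and B2m (chr2:122147487-122147667, plus strand) are shown because both hold an X2 core and a Y box at the same distance. Neither stretch holds an annotated UTR base. Capitals mark matches on either strand to the NF-kB site (GGGNNTTCC), the interferon regulatory factor core (GAAANNGAA), the X2 core (TGACG) and the Y box (CCAAT, read as ATTGG on the other strand).
H2-K1: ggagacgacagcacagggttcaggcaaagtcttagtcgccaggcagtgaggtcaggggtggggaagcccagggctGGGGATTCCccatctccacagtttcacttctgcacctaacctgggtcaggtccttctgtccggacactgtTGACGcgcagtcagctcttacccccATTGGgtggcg
B2m: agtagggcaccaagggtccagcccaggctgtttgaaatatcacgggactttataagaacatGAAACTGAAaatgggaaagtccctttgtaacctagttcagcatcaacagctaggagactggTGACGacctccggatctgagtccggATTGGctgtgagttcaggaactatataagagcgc

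The 30 bases from the X2 core through the Y box are set side by side below for the 3 genes that held both at this spacing, with the core and the box in capitals. Their positions are chr17:34000359-34000388 (minus strand) for H2-K1, chr17:35262993-35263022 (plus strand) for H2-D1, where a longer H2-D1 transcript has an annotated UTR, and chr2:122147609-122147638 (plus strand) for B2m.
H2-K1: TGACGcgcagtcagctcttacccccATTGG
H2-D1: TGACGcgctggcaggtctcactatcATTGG
B2m: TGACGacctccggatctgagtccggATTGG
The start of the core lies 25 bases before that of the box in all 3. The H2-K1 and H2-D1 copies share 23 of 30 bases, and the B2m copy shares 13 with H2-K1 and 12 with H2-D1. Both heavy chain genes also held an NF-kB match 70 bases before the X2 core. TGACG, any 20 bases and then ATTGG, searched on both strands, occurred in 31 of 32851 windows (0.0944%), which belong to 27 genes. These included H2-K1, H2-D1, B2m and the non-classical class I gene H2-M3.

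Single motifs were less selective. The X2 core occurred in 5 of the 8 class I promoters and 20.8% of all windows, and the Y box in 6 of 8 and 37.4%. The NF-kB site was in 2 of 8 (5.82% of all windows) and the STAT site TTCNNNGAA in Psmb8 alone (8.3%). The interferon regulatory factor core was searched only as GAAANNGAA, and this pattern was in B2m alone (8.56%). Other forms of this core were not searched, so the H2-K1 and H2-D1 promoters cannot be said to lack such a site. Tap1 and Psmb9 start 226 bases apart, and their windows share 275 bases, so that both hold the same X2 core and the same Y box. These are matches of letters, and no binding was measured here.

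**Figure D1:**
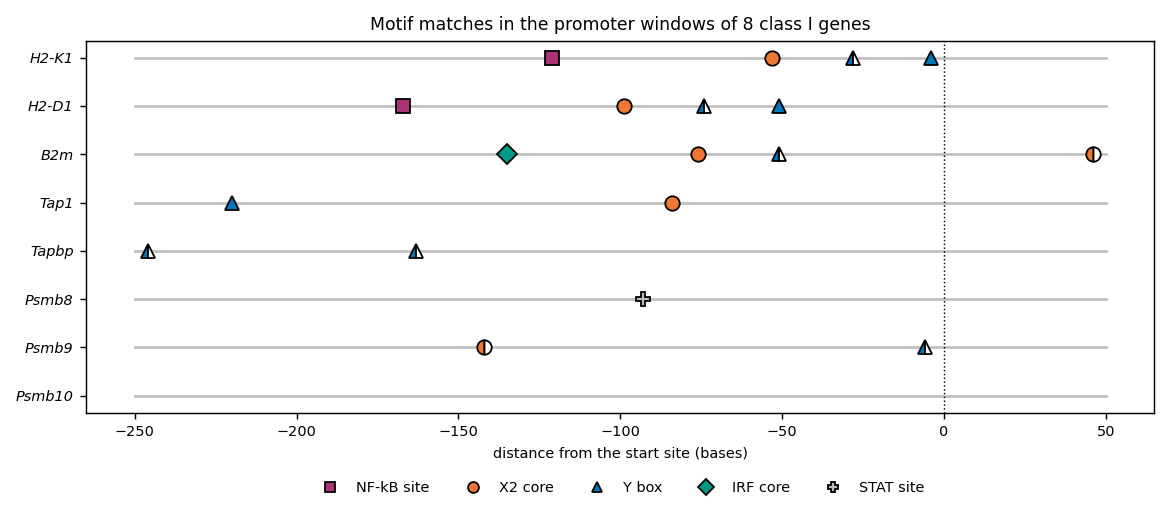
Motif matches in the promoter windows of 8 class I genes against the distance from the start site in bases, with the start at the dotted line. Filled symbols are matches on the gene's strand and half-filled symbols matches on the other strand, and H2-K1, H2-D1 and B2m share an X2 core followed 25 bases later by a Y box.

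Library sizes, as sums of recovered reads, lay between 9794413 and 20343954 for experiment 1. Those of experiment 2 lay between 22022330 and 36840455 and those of culture between 17505909 and 28729574. The class I genes were read deeply: the lowest count of any of them in any library was 347 reads (Psmb9), for a counting error of 5.37%, and in experiment 2 the lowest was 802. B cell markers were high in each group (Cd79a at 7179.1 or more), and the γδ T cell marker list summed to at most 16.4 normalized counts in any library. The 15 T cell markers, such as Cd3e and Trac, were summed. In experiment 1 the sum was 236, 314 and 406 in the depleted and 395, 400 and 464 in the untreated libraries. Lck alone held 167 to 195 and 218 to 228 of this sum, respectively. In experiment 2 this sum was 1745, 2228 and 2767 in the toxin control, 876 and 1166 in the depleted libraries, and 727, 872, 998, 1006 and 2212 in the untreated libraries. In culture it was 931 to 1044 without and 1134 to 1510 with γδ T cells. In bulk RNA, fewer cells of a type and less RNA per cell cannot be told apart.

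Per kb of annotated exon, the level of B2m was highest in all 7 groups, followed by H2-D1 and H2-K1, and that of Nlrc5 was lowest. In the untreated libraries of experiment 1 the level per kb was 9602 ± 582 for B2m, 4353 ± 211 for H2-D1 and 3160 ± 167 for H2-K1 (normalized counts per kb, SD, n = 3). Tapbp (767 ± 37.7) and Psmb8 (737 ± 54.4) came next and did not differ beyond their spread, and changed places in experiment 2 and culture. Tap1 followed at 349 ± 12.8, Psmb10 at 294 ± 47.5, which overlapped Tap1, and Tap2 at 222 ± 11.8. Psmb9 (132 ± 11.2) and Nlrc5 (66.7 ± 1.52) were lowest. Parts of this order depend on the length used. Per kb of the longest annotated transcript in place of all exons, chosen after seeing the data, Psmb9 (357 ± 30.4) lay above Tap2 (243 ± 12.9) in all 7 groups and Psmb8 above Tapbp. H2-K1 (5734 ± 303) then lay above H2-D1 (5341 ± 259) in both groups of experiment 1, with overlapping ranges in each. B2m stayed first and Nlrc5 last in all 7 groups under both lengths. The chains of the class I molecule itself were thus the most abundant of these mRNAs, and their transactivator the scarcest.

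Reads of the heavy chain genes are uncertain, since class I genes are near copies of each other. Of the stretches of 50 bases in the longest H2-D1 transcript, 14.3% occur in another gene, most often H2-Q1, and for H2-K1 8.79%, most often H2-D1. The longest run that the coding sequences of H2-K1 (bases 738 to 828 of 1107) and H2-D1 (747 to 837 of 1086) share has 91 bases and is shown because no read inside it can be given to either gene.
Shared run: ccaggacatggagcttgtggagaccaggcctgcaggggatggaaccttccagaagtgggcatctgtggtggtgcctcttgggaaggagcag
For Tap1, Tap2 and Tapbp the share was 0.861%, 0.737% and 2.0%, and for the other 5 genes it was 0. Whether the counting used strand is not given in the sources used here, so reads in the overlap of Tap1 and Psmb9 cannot be told apart. Tapbp also shares 149 exon bases with Zbtb22 (same strand, 489 to 775 normalized counts in experiment 2), and the other genes that overlap these 10 on the opposite strand stayed at or below 213.8 normalized counts.

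**Figure D2:**
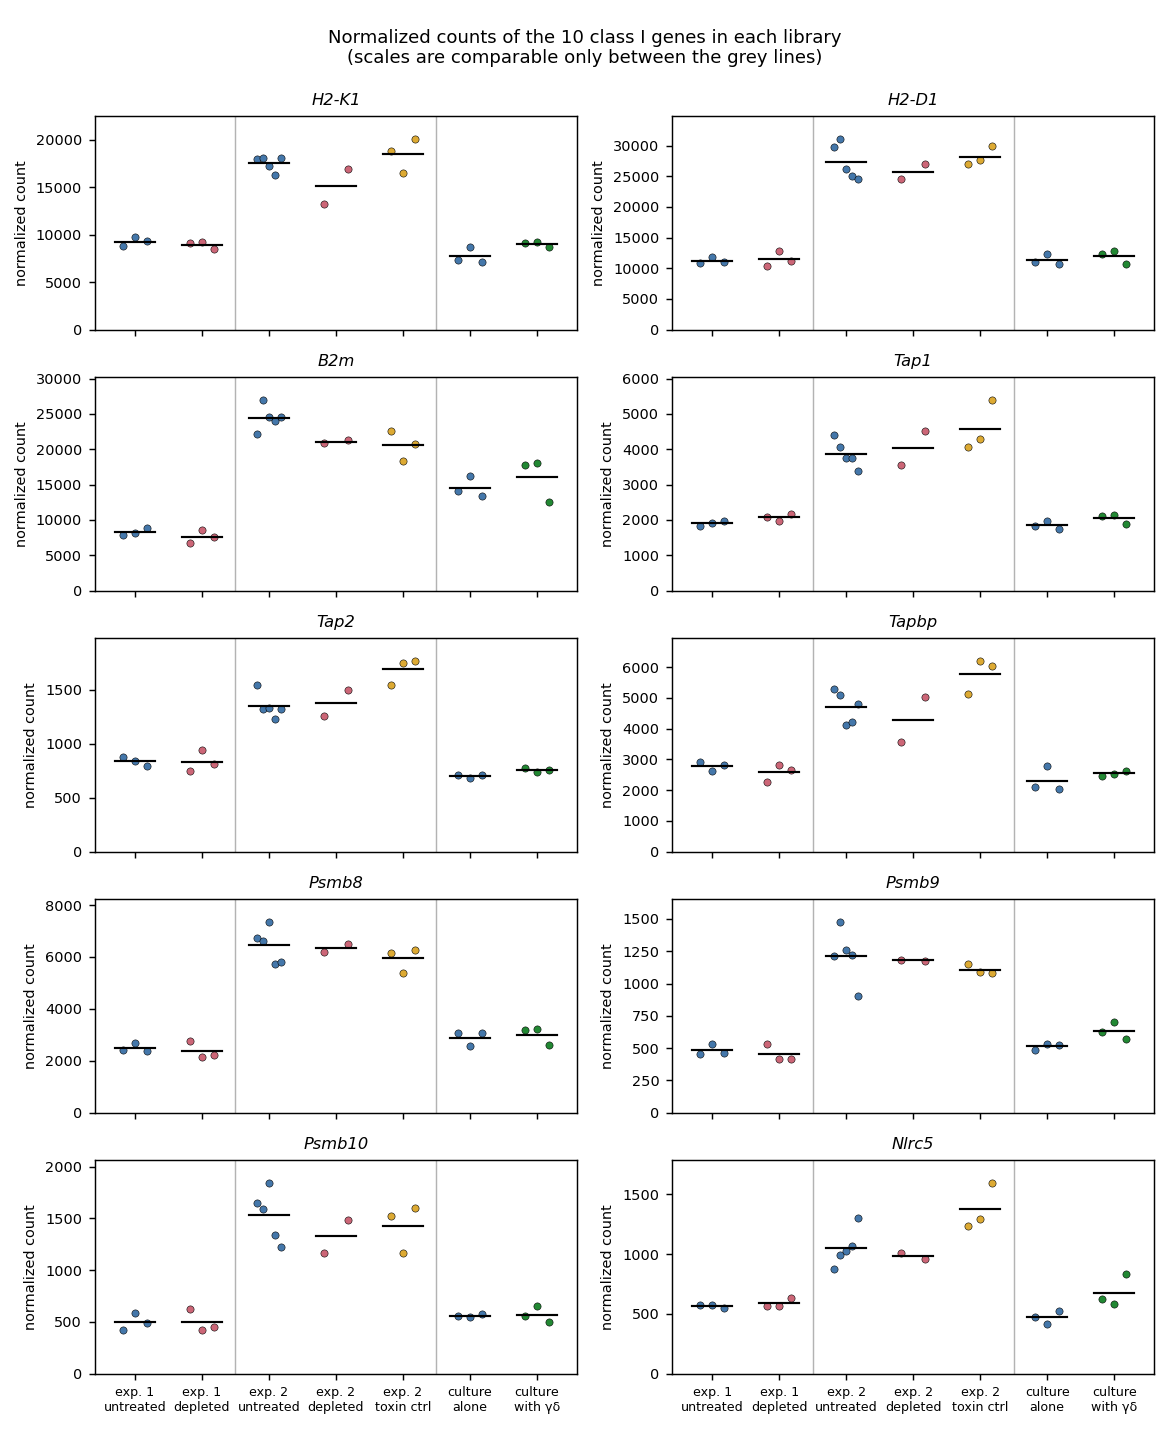
Normalized counts (y axis, from 0) of each class I gene in each of the 22 libraries, 1 point per library, with a black line at the group mean. In experiment 2 the 3 toxin control libraries of Tap2 (1545.7 to 1770.3) lie above all 5 untreated ones, while in experiment 1 the groups overlap for all 10 genes.

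The first question was whether the class I genes of immature B cells differed 8 days after toxin in Tcrd-GDL mice. In experiment 1 none of the 10 passed the test. H2-K1 was at 8943 ± 381 normalized counts in the depleted and 9283 ± 491 in the untreated libraries, a log2 fold change of -0.05 ± 0.10 (SE) with a 95% interval of -0.27 to 0.16. H2-D1 was at 11473 ± 1250 against 11227 ± 544 (0.03 ± 0.11) and B2m at 7597 ± 893 against 8257 ± 501 (-0.13 ± 0.11, SD, n = 3 in each group). All fold changes here are on the log2(value + 1) scale.

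The intervals of the peptide pump and its partners also spanned 0. Tap1 had the highest log2 fold change of the 10, 0.12 ± 0.09, from 1980, 2080 and 2182 normalized counts in depleted against 1840, 1909 and 1981 in untreated libraries. The 2 groups met at 1980 to 1981. Tap2 was at -0.01 ± 0.11, Tapbp at -0.12 ± 0.11 and Nlrc5 at 0.05 ± 0.10. The immunoproteasome subunits Psmb8, Psmb9 and Psmb10 were at -0.08, -0.09 and -0.02. Their 95% intervals reached from -0.40 to 0.36 for Psmb10, which had the widest, and depleted replicate 1 was the highest library for all 3 subunits.

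With limma across all genes, 0 of the 10 passed an adjusted p of 0.05 in experiment 1, where 0 of 11701 tested genes (0%) did. The adjusted p of the 10 ran from 0.690 to 0.976, 0 had an unadjusted p under 0.05, and edgeR and DESeq2 called 0 of them. Their median absolute log2 fold change was 0.06, against 0.15 over all tested genes. The groups overlapped for all 10, while 15.2% of all tested genes did not overlap.

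The related lists and the marker lists held 0 calls in experiment 1. All 8 tested T cell markers (median -0.70) and all 6 tested macrophage and monocyte markers (median -0.47) were negative there. The 2 tested NK cell markers were positive (median 0.25). The part of these cells' RNA in the values of the class I genes was not tested. The standard subunits Psmb5, Psmb6 and Psmb7 were at 0.02, -0.19 and 0.0032, the activator subunits Psme1 and Psme2 at -0.03 and -0.23, and the transcription factor Irf1 at -0.10. Depleted replicate 1 decided this outcome for the lists. Without it 1092 genes passed, among them 4 of 17 regulators and 4 interferon γ-induced GTPase genes (lower), 3 of 9 loading and trimming genes (lower) and 3 of 13 class II genes (higher). None of the 10 class I genes passed without it. In depleted replicate 1 the most abundant gene, Gm23935, held 28.7% of the reads, against 16.1 to 20.4% in the other libraries of experiment 1. The part of this difference in the outcome was not tested.

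In experiment 2 the same contrast gave the same outcome for the call. For B2m, the light chain of class I molecules, the depleted libraries held 20885 and 21272 normalized counts. Its untreated libraries held 22198, 23933, 24498, 24555 and 27018. All 5 of these lay above both depleted libraries, for a log2 fold change of -0.21 ± 0.11 and an adjusted p of 0.573. B2m was the only one of the 10 whose groups did not overlap, and 12.3% of all tested genes did not.

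H2-K1 had 13250 and 16980 normalized counts in depleted replicates 4 and 5. The untreated libraries of H2-K1 ran from 16301 to 18148 (median 17993), so replicate 4 lay below them and replicate 5 within them. The log2 fold change was -0.22 ± 0.12 with an adjusted p of 0.560. Without depleted replicate 5 it was -0.40, and without replicate 4 it was -0.05. Tapbp showed the same split, with 3559 in replicate 4 and 5018 in replicate 5 against 4130 to 5284 in untreated libraries. Its value was -0.15 ± 0.13, and 0.10 without replicate 4.

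Psmb10 was split too, with 1168.8 in replicate 4 and 1484.6 in replicate 5 against 1226 to 1843 in untreated libraries. Its value was -0.20 ± 0.16, and it was -0.37 without replicate 5 and -0.03 without replicate 4. The other 6 genes stayed closer, between -0.08 and 0.05. Nlrc5 was at 1009 and 961 normalized counts in the depleted libraries, inside the untreated range of 872 to 1305. Psmb9 was at 1183 and 1178, also inside its untreated range of 905 to 1479. In all, 0 of the 10 passed the limma test, where 40 of 13364 tested genes (0.299%) did (17 higher and 23 lower, and 36 and 15 with edgeR), and 0 had an unadjusted p under 0.05. edgeR and DESeq2 called 0 of the 10 too. The widest 95% interval reached -0.53 (Psmb10). Psmb5, Psmb6 and Psmb7 were at -0.19, 0.12 and -0.05, Psme1 and Psme2 at -0.07 and -0.29, and Irf1 at -0.33. No gene of the related lists passed, and without depleted replicate 5 there were 3 of 13 class II genes and 2 of 17 regulators.

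**Figure D3:**
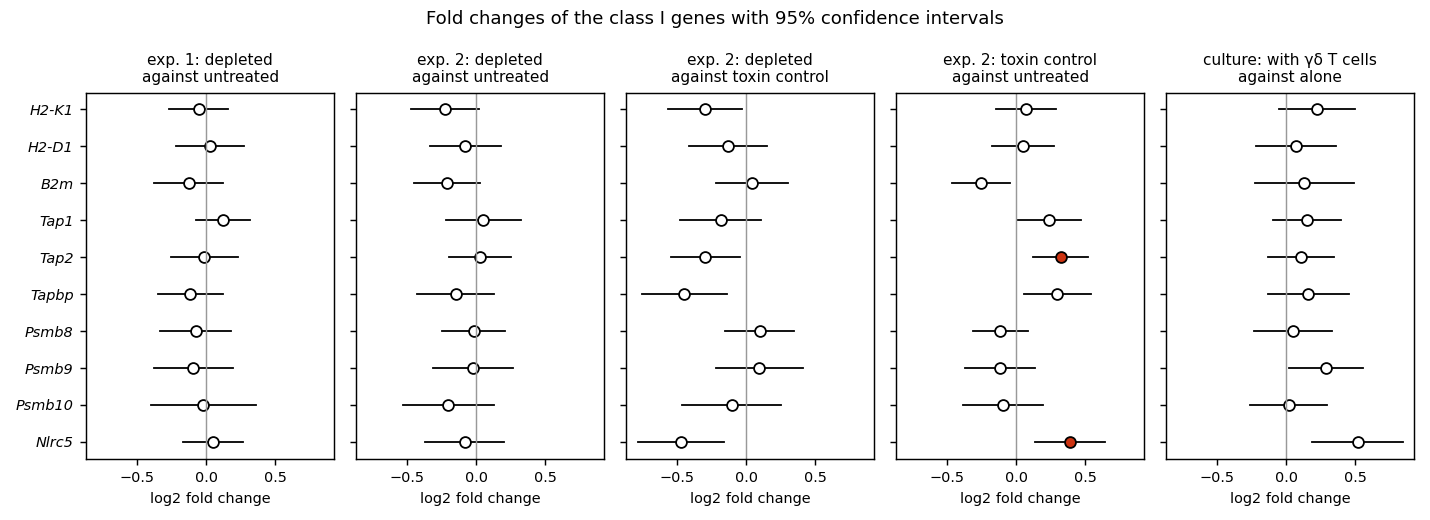
Log2 fold changes (points) of the class I genes with 95% confidence intervals (bars) in the 5 comparisons, where red points passed an adjusted p of 0.05. Tap2 and Nlrc5 in the toxin control against untreated libraries are the only red points, and both comparisons of depleted with untreated libraries stay between -0.22 and 0.12.

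The toxin control (Tcrd-H2BeGFP) was next set against the untreated libraries of experiment 2. These are Tcrd-GDL, so that strain and toxin both differ. Tap2 and Nlrc5 rose. Tap2, one of the 2 chains of the peptide pump, held 1545.7, 1751.3 and 1770.3 normalized counts in the toxin control. Its untreated libraries held 1232.9, 1319, 1326.6, 1332 and 1544.2, so that the groups did not overlap, by a margin of 1.5 normalized counts. The log2 fold change was 0.32 ± 0.09 (95% interval 0.12 to 0.52, adjusted p = 0.0302).

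Nlrc5, the class I transactivator, held 1238, 1293.5 and 1596.2 normalized counts in the toxin control. Its untreated libraries held 871.62, 991.31, 1024, 1071.3 and 1305.2, and untreated replicate 8, the highest, lay above 2 of the 3 toxin control libraries. The log2 fold change was 0.39 ± 0.12 (95% interval 0.14 to 0.64, adjusted p = 0.0363). These 2 calls stand among 2093 of 13364 tested genes (15.7%), of which 978 were higher, so 2 of 10 is near the share over all genes. The T cell markers were also higher in the toxin control, where all 15 had a positive fold change. Their mean log2 level was then used as a term in the fit. The value of Tap2 was as large (0.34) but did not pass (adjusted p = 0.269). That of Nlrc5 was 0.20 (adjusted p = 0.594), and 14 of all genes passed. Since that level goes with the group, the fit cannot fully separate the 2.

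Both calls were also lost on leaving out toxin control replicate 2 or 3 or untreated replicate 5, 6 or 7, and that of Nlrc5 on leaving out untreated replicate 4. The adjusted p then ran from 0.0602 to 0.192. Over 16 alternatives, Tap2 was called in 9 and Nlrc5 in 8, and the log2 fold change stayed positive in all of them, from 0.29 to 0.39 for Tap2 and from 0.20 to 0.47 for Nlrc5.

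The partners of Tap2 had fold changes of the same sign that did not pass, except for Tapbp in the fit of only the 2 groups compared (adjusted p = 0.0382). Tapbp held 5119, 6027 and 6212 normalized counts in the toxin control and 4130, 4228, 4803, 5102 and 5284 in the untreated libraries. Its log2 fold change was 0.30 ± 0.12 with an adjusted p of 0.0886. Tap1 held 4066, 4284 and 5404 against 3383 to 4403 (0.24 ± 0.11, adjusted p = 0.1505). Toxin control replicate 3 was the highest of the 10 libraries for Tap1, Tap2 and Nlrc5.

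None of the chains of the class I molecule passed. H2-K1 was at 0.07 ± 0.10 and H2-D1 at 0.05 ± 0.11, with intervals of -0.14 to 0.29 and -0.17 to 0.28. B2m was at -0.25 ± 0.10 with an adjusted p of 0.0915, from 18349, 20721 and 22569 normalized counts in the toxin control against 22198 to 27018. For these most abundant genes the scaling mattered. After quantile normalization H2-K1 (0.35) and H2-D1 (0.39) passed as higher and B2m was at 0.05, whereas DESeq2 on the recovered reads called B2m lower at -0.25 (adjusted p = 0.0305).

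The immunoproteasome subunits had log2 fold changes below 0 in the toxin control, at -0.11 ± 0.09 for Psmb8, -0.12 ± 0.12 for Psmb9 and -0.10 ± 0.14 for Psmb10, and none passed. Psmb9 held 1081.1, 1086.6 and 1151.7 normalized counts in the toxin control, inside its untreated range of 905 to 1479. With the T cell marker level as a term, Psmb9 (0.16) and Psmb10 (0.06) were above 0. Of the 3 standard subunits, 2 fell. The log2 fold change of Psmb6 was -0.52 ± 0.13 (adjusted p = 0.0163) and that of Psmb7 -0.40 ± 0.11 (adjusted p = 0.0238), while Psmb5 was at -0.27 ± 0.11 (adjusted p = 0.0913). Of the other 11 subunits of the 20S core, 10 fell, with a median over the list of -0.35 beside 0.00083 over all tested genes. They included Psma6 (-0.59), Psma5 (-0.58), Psmb2 (-0.56) and Psmb1 (-0.54).

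The ratio of an immunoproteasome subunit to the standard subunit it replaces was then computed in each library, in which gene length cancels between groups. Psmb9/Psmb6 was 0.95, 0.934 and 0.864 in the toxin control. In the untreated libraries it was 0.589, 0.643, 0.696, 0.717 and 0.848, all below. The mean log2 ratio was higher by 0.40 (exact two-sided permutation test, p = 0.0357, the smallest that 3 against 5 libraries allow, and 0.268 adjusted over 15 tests). Psmb10/Psmb7 was 1.54, 1.68 and 1.96 in the toxin control, again above all untreated libraries (1.29, 1.32, 1.35, 1.48 and 1.52). Its difference was 0.30 with the same exact p of 0.0357 (adjusted p = 0.268). Psmb8/Psmb5 ran from 14.5 to 16.7 against 12.8 to 14.8 and overlapped (0.16, exact permutation p = 0.143, adjusted p = 0.5). Between depleted and untreated libraries the 3 ratios (Psmb8/Psmb5, Psmb9/Psmb6, Psmb10/Psmb7) differed by -0.09, 0.09 and -0.02 in experiment 1 (exact permutation p = 1, 0.6 and 0.8). In experiment 2 they differed by 0.18, -0.14 and -0.16 (exact permutation p = 0.190, 0.381 and 0.476, where 0.0952 is the smallest possible). In experiment 1 Psmb8/Psmb5 was 11.1 in depleted replicate 1, below the 5 other libraries (16.2 to 19.5). None of the 15 tests passed after adjustment. With these group sizes none could have, even with every test at its smallest possible p, so the adjusted outcome decides nothing. Both higher ratios came with a lower denominator.

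**Figure D4:**
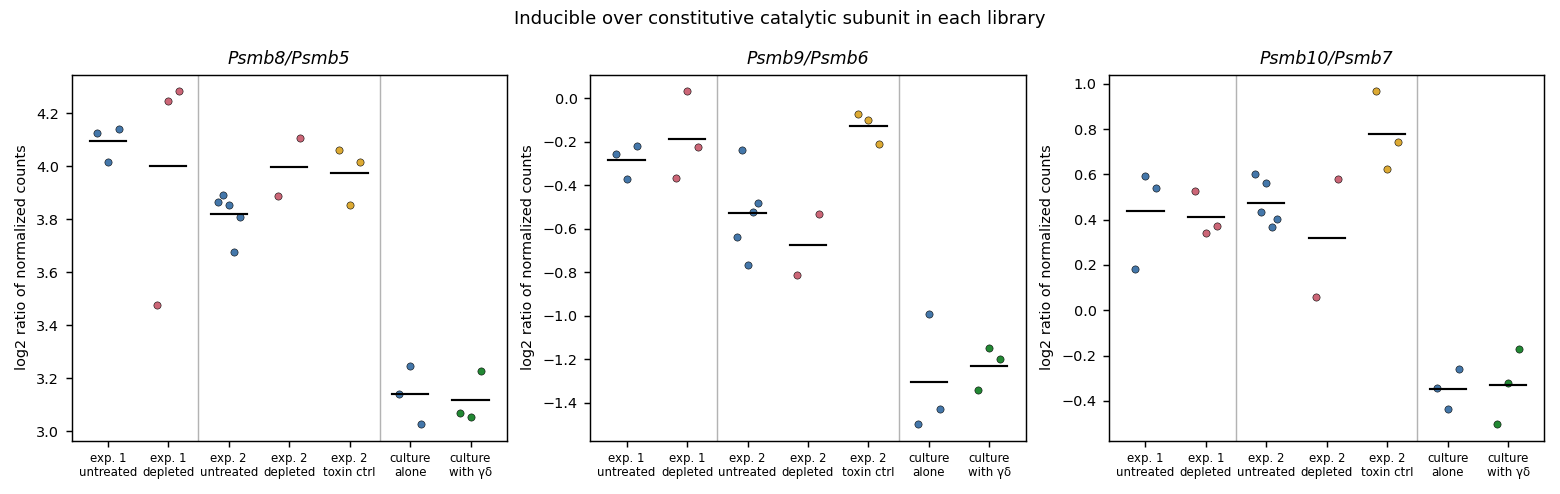
Log2 ratio of the normalized counts of each immunoproteasome subunit to the standard subunit it replaces (y axis) in each library, 1 point per library, with a black line at the group mean. For Psmb9/Psmb6 and Psmb10/Psmb7 the 3 toxin control libraries lie above all 5 untreated libraries of experiment 2.

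The counts of lower proteasome genes rested on several libraries. Of 11, 10 were called with all libraries, 0 without toxin control replicate 2, 4 without toxin control replicate 3 or without untreated replicate 4, 5 or 6, 6 without untreated replicate 7, 7 without toxin control replicate 1, 11 without untreated replicate 8, and 0 with the T cell markers as a term. The median of the list stayed below 0 in each of these, from -0.42 to -0.18. Quantile normalization and edgeR each gave 10. Of the standard subunits, 0 passed without toxin control replicate 2 and 1 without toxin control replicate 1 or untreated replicate 5 or 6.

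Other genes of the pathway, from lists chosen for this report, were mixed in the toxin control. Of 9 tested loading and trimming genes, Erap1, which trims peptides in the endoplasmic reticulum, rose by 0.38 ± 0.11, and Tapbpl, a tapasin relative that edits peptides, by 0.43 ± 0.13. Of 10 tested non-classical class I genes, H2-Q6 (0.37), H2-T24 (0.37) and H2-Q4 (0.32) rose. Of 17 regulators, 4 rose, among them Nfkb1 (0.44), a subunit of NF-kB, Irf2 (0.28), an interferon regulatory factor, and Ctcf (0.27). Irf1 was at 0.02. Psme2, a subunit of the interferon-inducible proteasome activator, fell by 0.40 ± 0.12, and Psme1 was at -0.04. Of 9 interferon receptor and JAK genes, Jak1 rose (0.37), and not without toxin control replicate 2.

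Beside these stood other differences between the same libraries. Of the 15 T cell markers, 15 had a positive fold change and 7 rose, with a median of 1.24, led by Lat (1.75), Tcf7 (1.81) and Thy1 (2.01). Of the macrophage and monocyte markers Itgam (0.85), Cx3cr1 (1.91) and Ccr2 (1.68) rose, and of the NK cell markers Ncr1 (2.21). The sort marker Cd93 rose, at 1756.7 to 2290.4 normalized counts in the toxin control against 905.49 to 1408.9, as did Ptprc (0.41), whose B cell form is B220. The mitochondrial ribosomal RNA mt-Rnr2 held 14.5, 15.7 and 17.9% of the reads in the toxin control, below the 20.6 to 25.2% of the untreated libraries, and 19.2 and 24.2% in the depleted libraries. Of 9 mitochondrially encoded genes mt-Nd5 rose (0.55) and mt-Co3 fell (-0.94), with a median of -0.16. The part of this difference in the values of the class I genes was not tested. Of 16 interferon γ-induced GTPase genes, 6 rose, among them Gvin1 (0.98) and Gbp6 (0.89). Of 13 class II genes, which serve the parallel pathway for peptides taken up from outside, Ciita rose (0.34) and H2-Ob (-0.43), H2-Aa (-0.41) and Ctss (-0.33) fell. The part of other cells' RNA in these differences was not tested. With the T cell marker level as a term, 0 genes of the loading, non-classical, regulator, GTPase and class II lists passed. That level goes with the group, so the fit cannot decide this part. Without toxin control replicate 3 the counts of higher genes were 0 loading, 0 non-classical, 2 regulator and 1 GTPase genes, and without toxin control replicate 2 they were 0, 1, 1 and 3. No class II gene passed in either case. Without untreated replicate 6 or 7, 0 loading genes and 2 regulators passed, and without untreated replicate 5 there were 1 and 2. Quantile normalization left 2 regulators and 2 class II genes.

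The depleted libraries of experiment 2 were also set against the toxin control, which shared the toxin but not the strain. This comparison shares its libraries with both others of experiment 2. None of the 10 class I genes passed, among 1212 of 13364 tested genes (9.07%) that did. At an unadjusted p under 0.05 there were 4, namely Nlrc5, Tapbp, Tap2 and H2-K1, all lower in depleted libraries, where 3592 of all tested genes (26.9%) had such a p. edgeR called 0 of the 10 and DESeq2 called 2, Tapbp and Nlrc5.

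Nlrc5 held 961 and 1009 normalized counts in depleted libraries and 1238 or more in the toxin control. Its log2 fold change was -0.47 ± 0.15 (95% interval -0.79 to -0.16, adjusted p = 0.0550). Tapbp held 3559 and 5018 against 5119 or more (-0.45 ± 0.14, adjusted p = 0.0619), and Tap2 1259.8 and 1497.4 against 1545.7 or more (-0.30 ± 0.12, adjusted p = 0.118). The groups of these 3 genes did not overlap. H2-K1 was at -0.30 ± 0.13 (adjusted p = 0.145), with depleted replicate 5 inside the toxin control range.

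H2-D1 (24613 and 26910 against 26946 to 29937, -0.13 ± 0.13) also did not overlap, and Psmb9 did not in the other direction (1178 and 1183 against 1081 to 1152, 0.09 ± 0.15). That makes 5 of 10, where 42.1% of all tested genes did not overlap. B2m was at 0.04 ± 0.12, Tap1 at -0.19 ± 0.14, Psmb8 at 0.10 ± 0.12 and Psmb10 at -0.11 ± 0.17. Without depleted replicate 5, H2-K1 (-0.48), Tap2 (-0.42) and Tapbp (-0.70) were called lower. Quantile normalization called H2-K1 (-0.57) and H2-D1 (-0.60) lower and put B2m at -0.35 (adjusted p = 0.0696), the other sign. Nlrc5 was at -0.27 (adjusted p = 0.583) with the T cell markers as a term, whose 15 genes all had negative fold changes here (median -1.44, 4 called lower, led by Cd5, Tcf7 and Cd28). Of the 10 B cell markers 9 were negative (median -0.36) and 3 fell, Cd93 (-0.86), Ptprc (-0.50) and Cd24a (-0.54). All 7 tested NK cell markers were negative (median -1.47) and Nkg7 fell (-3.31), and of 8 tested macrophage and monocyte markers 3 fell, Itgam (-1.24), Cx3cr1 (-2.77) and Lyz2 (-1.80). The part of these cells' RNA in the values of the class I genes was not tested.

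The standard proteasome genes stood the other way. Psmb6 rose by 0.64 ± 0.16 in depleted libraries against the toxin control (adjusted p = 0.0255), and 4 of the 11 other core genes rose, Psma6 (0.67), Psma5 (0.56), Psmb1 (0.54) and Psmb2 (0.51). Psmb7 was at 0.35 ± 0.14, Psmb5 at 0.08, Psme1 at -0.03 and Psme2 at 0.11. The log2 ratio Psmb9/Psmb6 was lower by 0.55 and Psmb10/Psmb7 by 0.46, and the exact permutation p of 0.2 is the smallest that 2 against 3 libraries allow. Without depleted replicate 4 or toxin control replicate 2, 0 of these core genes passed, without toxin control replicate 3 there was 1, and without depleted replicate 5 there were 7. Nfkb1 (-0.49), Socs1 (-0.80) and H2-T24 (-0.54) fell, and Irf1 was at -0.35 (adjusted p = 0.0741). Of the 16 GTPase genes, 4 fell, Gbp6 (-1.33), Gvin1 (-0.96), Tgtp2 (-0.95) and Irgm2 (-0.61). Of the class II genes, H2-Aa (0.70), H2-Ob (0.64), H2-Eb1 (0.42) and H2-DMa (0.36) rose and Ifi30 (-0.70) fell. Without depleted replicate 4 none of these lists held a call. Without toxin control replicate 2 there were 0 class II, 0 non-classical, 1 regulator and 2 GTPase genes, and without depleted replicate 5 there were 9 class II, 2 non-classical, 4 regulator and 8 GTPase genes. With the T cell marker level, which also differed between these groups, as a term there were 0.

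**Figure D5:**
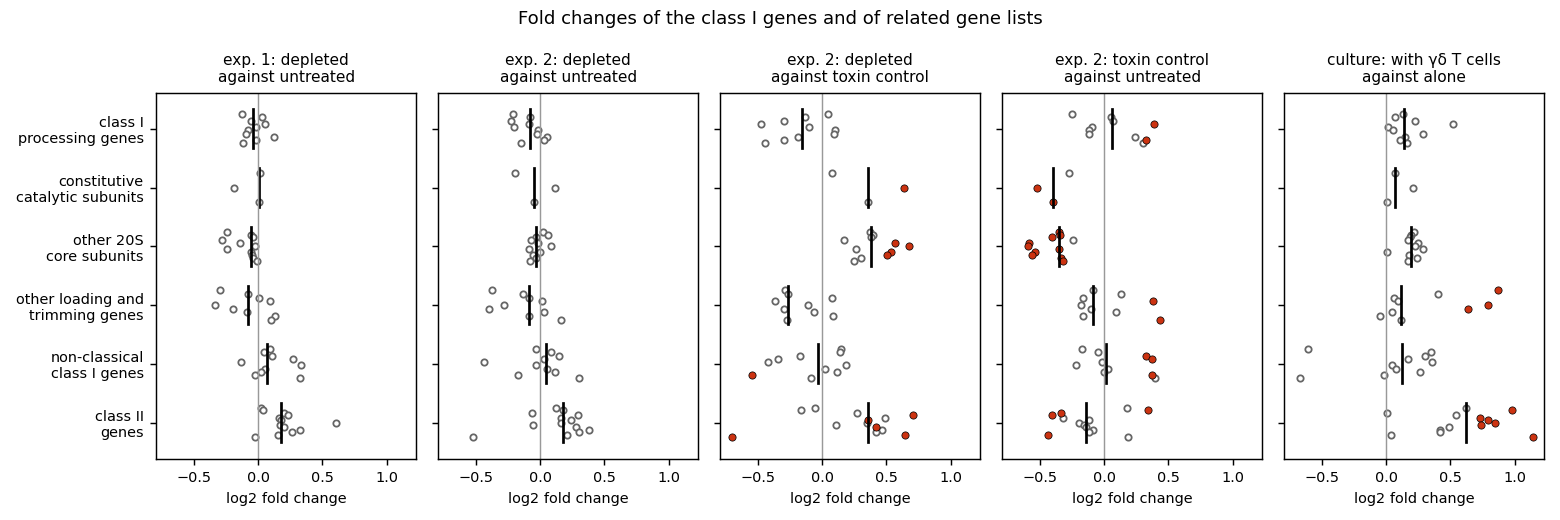
Log2 fold changes (x axis) of the class I genes and of 5 related lists in the 5 comparisons, 1 point per gene, red where the adjusted p was under 0.05, with a black line at the list median. In the toxin control 10 of 11 core subunits are red and below 0, and in culture 6 of 13 class II genes are red and above 0 while no class I gene is.

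In culture, immature B cells kept with γδ T cells were compared with cells kept alone. All 10 class I genes had a positive log2 fold change, where 49.2% of all tested genes did, and none passed the test. Their median was 0.14 beside -0.0050 over all tested genes. The median absolute log2 fold change was 0.14, against 0.16 over all tested genes. The 10 were measured in the same libraries, so their signs are not independent. Nlrc5 had the highest log2 fold change. It held 579.5, 627.02 and 829.86 normalized counts with γδ T cells and 419.44, 470.18 and 520.62 without, so the groups did not overlap. Its log2 fold change was 0.52 ± 0.15 (95% interval 0.19 to 0.85, adjusted p = 0.116).

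Psmb9 held 567.57, 626.05 and 698.66 normalized counts with γδ T cells against 486.07, 526.85 and 533.3 alone (0.29 ± 0.12, adjusted p = 0.354). Tap2 held 739, 757 and 774 against 684, 707 and 714 (0.11 ± 0.11, adjusted p = 0.761). Neither overlapped, and these 3 of 10 compare with 18.4% of all tested genes. H2-K1 was at 0.23 ± 0.13, from 8660, 9104 and 9226 against 7165, 7293 and 8713, and overlapped at the edge. H2-D1 (0.07), B2m (0.13), Tap1 (0.15), Tapbp (0.16), Psmb8 (0.05) and Psmb10 (0.02) had smaller fold changes. Of all tested genes, 267 of 12386 (2.16%) passed. The 10 had 2 with an unadjusted p under 0.05 (Nlrc5 and Psmb9), where 1563 of all tested genes (12.6%) did, and edgeR and DESeq2 called 0.

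Genes around the class I pathway did pass in culture. Calr rose by 0.87 ± 0.12 on the log2 scale (5338 ± 188 to 9798 ± 801 normalized counts), Hspa5 by 0.79 ± 0.14 and Pdia3 by 0.63 ± 0.15. Calr and Pdia3 encode calreticulin and ERp57, chaperones of the peptide loading complex that also fold other proteins, and Hspa5 encodes BiP, a general chaperone of the endoplasmic reticulum. Of the 9 genes of that list, 1 passed without culture alone replicate 1 or 3, and 4 passed without replicate 3 kept with γδ T cells. Of 13 class II genes, 6 rose and 13 were positive (median 0.62): Ifi30 (1.14), Ciita (0.98), H2-DMb1 (0.84), H2-DMa (0.79), H2-DMb2 (0.74) and H2-Ab1 (0.73). Without culture alone replicate 1, 2 or 3 the count was 2, 3 and 3, and without replicate 3 kept with γδ T cells it was 11.

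In culture 2 of 9 interferon receptor and JAK genes and 2 of 14 tested GTPase genes passed. Socs1, a feedback inhibitor of cytokine receptors, rose by 1.70 ± 0.15, the receptor chain Ifngr2 by 0.56 ± 0.11 and Tgtp2 by 1.86 ± 0.34, while Gbp3 fell by 0.73 ± 0.14. Of the GTPase genes, 7 had positive and 7 negative fold changes. Irf1 was at 0.19 ± 0.14, and 0 of the 17 regulators and 0 of the 10 non-classical genes passed. The activator subunits Psme1 (0.44 ± 0.11, adjusted p = 0.0783) and Psme2 (0.41 ± 0.14, adjusted p = 0.179) did not pass. The 11 core subunits were all positive with a median of 0.19, and 0 passed (3 without replicate 3 kept with γδ T cells). Psmb5, Psmb6 and Psmb7 were at 0.07, 0.21 and 0.0035. Of the T cell markers Lck rose (0.71) and Cd5 fell (-0.95), with a median of the list of -0.04, and of the B cell markers Cd24a fell (-0.79). The 3 subunit ratios differed by -0.02 to 0.08 (exact permutation p = 0.7 to 0.9, where 3 against 3 libraries cannot go below 0.1).

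Set beside each other, the 5 comparisons give Tap2 log2 fold changes of -0.01, 0.03, -0.30, 0.32 and 0.11, and Nlrc5 values of 0.05, -0.08, -0.47, 0.39 and 0.52, in the order experiment 1, then depleted against untreated, depleted against toxin control and toxin control against untreated of experiment 2, then culture. The 3 comparisons of experiment 2 share libraries. Over the 10 libraries of experiment 2, the Pearson r of Tap2 was 0.87 with Tapbp, 0.82 with Tap1, 0.51 with Nlrc5, -0.27 with Psmb9 and -0.68 with B2m. The other tables had other values: with Tapbp, Tap1 and Nlrc5 the r was 0.72, -0.51 and -0.11 over the 6 libraries of experiment 1 and 0.15, 0.48 and 0.86 over the 6 of culture. These values describe genes in libraries that share depth and scaling. The 10 class I genes had no common pattern in experiment 1, where Psmb10 had an r of 0.92 with Psmb8 and -0.82 with Tapbp. Their mean thus joins genes that went opposite ways there. The genes named next were picked as the closest to this mean, without a test. Of 11464 genes tested in all 3 tables, those whose pattern over the libraries of each table came closest to the mean of the 10 class I genes were P4hb (lowest of the 3 Pearson r 0.73), H2-Q7 (0.70), Slc25a26 (0.64), Pik3r3, Denr, Xbp1, Il4ra (0.63 each) and Ogfr (0.61), over 6, 10 and 6 libraries.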

How the data were processed

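The authors deposited normalized counts of each gene in 3 tables, 1 for each experiment, and these are used here as a signal scaled by library. The labels' protocols name the RNeasy Plus Micro kit for RNA and a SMART-Seq Stranded kit of Takara for the libraries. Per the submitters' processing notes, bcl2fastq and STAR 2.5.2b were used with mm10. For the counter, its use of strand, the annotation and the scaling, the method is not given in the sources used here. In each library 100% of values, divided by the smallest one, came out whole (tolerance 0.01), which gave the recovered reads and the library sizes.

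Log2(value + 1) of genes with a mean of at least 10 was tested with limma (3.58.1 in R 4.3.3, eBayes fitting the trend of variance with level), with p-values adjusted by Benjamini-Hochberg across the 11701, 13364 or 12386 genes tested in a table and a threshold of 0.05. The 3 groups of experiment 2 were fitted together. No covariate or block was used. Subunit ratios were compared with exact permutation tests over libraries (SciPy 1.17.1). Replicates were compared in 26 pairs by chi-square over genes. The lowest value was 5.13 per degree of freedom, more than counting alone gives. This cannot show that libraries came from separate animals. Each library was counted as 1 sample. Alternatives were edgeR (4.0.16, TMM) and DESeq2 (1.42.0) on recovered reads, a pseudocount of 8, no filter and a mean of at least 50. Quantile normalization, each library left out, only the 2 groups compared, a replicate block and a T cell term were also used. The T cell term was the mean log2(value + 1) of the T cell markers. The script for limma was tested on simulated data.

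The 10 genes and the lists were chosen with earlier results of these data known. All 10 are named in each comparison, with Psmb5, Psmb6, Psmb7, Psme1, Psme2 and Irf1, up to 4 genes per list (3 per marker list) that passed with the smallest p, and the 8 genes of likest pattern. Others named were picked after their values were seen. Some genes of the lists are counted but not reported by name here. List counts under the alternatives were added after seeing the data. Coordinates and exon lengths come from GENCODE M21 (GRCm38), which held 28918 of 29294 gene identifiers of the tables, and promoters from RefSeq (GRCm38.p6).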

Additional observations from a re-analysis of the deposited data

How the results depend on the processing

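The number of class I genes called stayed at 0 under all alternatives in both comparisons of depleted with untreated libraries. Between the toxin control and untreated libraries, where 2 were called, there were 0 with no filter on low values (Tap2 at an adjusted p of 0.0509), 0 with the T cell marker level as a term and 4 with quantile normalization, and leaving out 1 library gave 0 to 2. Between depleted and toxin control libraries, where 0 were called, there were 2 with DESeq2 and 2 with quantile normalization, and leaving out 1 library gave 0 to 3. In culture leaving out 1 library gave 0 in each case. With a replicate block there was 1, Nlrc5 (adjusted p = 0.0314), and the block moved the genes called from 267 to 448 in culture, from 40 to 153 between depleted and untreated libraries of experiment 2, and left 0 in experiment 1. Libraries with the same number did not deviate together in all pairs (r of -0.04 to 0.05, -0.11 to -0.07 and -0.04 to 0.23), so the numbers were not taken as a pairing. Of the culture libraries with γδ T cells, replicates 1 and 3 correlated best with their own number (r of 0.20 and 0.23). Replicate 2 did not, nor did any depleted library of experiments 1 and 2. Over all tested genes, leaving out 1 library gave 0 to 1092 calls in experiment 1 (1092 without depleted replicate 1), 0 to 579 for depleted against untreated in experiment 2, 42 to 2712 for depleted against toxin control, 196 to 2996 for toxin control against untreated and 103 to 678 in culture. In experiment 1 DESeq2 called 31 genes and no filter 2. Between depleted and untreated libraries of experiment 2 DESeq2 called 137, the T cell term 71 and the fit of only the 2 groups 5. Between depleted and toxin control libraries no filter gave 725, only the 2 groups 442 and the T cell term 46, and between toxin control and untreated libraries that term left 14. The depleted group of experiment 2 has 2 libraries, and leaving out each in turn moved the difference in log2 Psmb9/Psmb6 against the toxin control between -0.68 and -0.41, that of Psmb10/Psmb7 between -0.72 and -0.20, that of Psmb10/Psmb7 against untreated libraries between -0.42 and 0.10 and that of Psmb8/Psmb5 against untreated libraries between 0.068 and 0.29. With 1 depleted library left, the fits across genes take its spread from the other groups. The cause of these shifts was not tested. Counting error was at most 5.37% and exceeded the coefficient of variation between libraries in 6 cases: Tap2 in culture alone (4.18 against 2.21%) and with γδ T cells (3.54 against 2.28%), Psmb10 in culture alone (4.66 against 2.42%), Nlrc5 in experiment 1 untreated libraries (4.58 against 2.27%), and Nlrc5 (3.48 against 3.43%) and Psmb9 (3.15 against 0.3055%) in experiment 2 depleted libraries.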
